A study of Homo sapiens with 4 samples.

Results

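DEAD box and DEAH box RNA helicase genes were followed through peaks of captured RNA in RD, a human cell line of embryonal rhabdomyosarcoma. The 10 genes described are DDX1, DDX18, DDX21, DDX23, DDX24, DDX27, DDX46, DDX49, DDX54 and DHX38, out of 958 annotated genes with a peak in any of the 3 lists used. They were chosen because at least 1 deposited peak overlapped their gene span on GRCh38, with strand ignored. A peak is a stretch where the caller counted more reads than its model allowed, and each listed peak had a p-value under 0.01. Genes just short of that limit are not in the lists, and the weakest helicase peak inside it was an even peak of DDX49, at 0.00740. Having a peak is therefore the rule of choice and not a result.

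The RNA was recovered with biotinylated antisense probes, and each probe set was 1 library. The even and odd probes were both directed at exon 2 of ZNF609, the exon of the circular RNA circ-ZNF609, and the LacZ probes at a bacterial mRNA as the control. The labels name the same cell line and no drug or genetic change for each pull-down, and a sample of total lysate was not analysed here. With 1 library per probe set no value has a replicate error and no test between probe sets was made.

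RNA helicases of this family use ATP to open short RNA duplexes or to remove proteins from RNA. They are named for amino acids of a conserved motif, and most act inside large machines, chiefly the ribosome assembly line of the nucleolus and the spliceosome. The values below concern the messenger RNAs or pre-mRNAs of these genes, as captured by probes, and not the helicase proteins. Each is given as reads per bin of 170 bases, without scaling to library size. The helicase with the most shared capture between the ZNF609 probe sets was DDX27, and the one with the most capture shared with the control was DDX23.

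DDX27 also had the 1 helicase peak that reached a promoter window (250 bases before to 50 after a gene start). The even peak at chr20:49219421-49219590 began 5 bases after the annotated start of DDX27, and 45 of its bases lay in that window. It was the weakest of the 5 even peaks of DDX27, with 139 reads per bin, where the median of all even peaks was 293. Its p-value from the caller was 0.00671, at rank 433 of 502. The 30 bases across the peak's edge, chr20:49219406-49219435 on the plus strand of GRCh38.p14 from RefSeq, are shown to place the captured RNA at the gene's start. Capitals mark the first 15 bases of the peak.
DDX27: accgcaggctgtgctCGCTTCCGGAAGTGG
The edge follows the grid of bins, so it does not show where the transcript starts. Any promoter window was reached by 1.20% of even peaks, 2.95% of odd peaks and 2.63% of LacZ peaks. Only promoter windows were used as sequence here, so the other peaks, which lie outside them, are shown without theirs.

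The helicase peaks were mostly even peaks. There were 17 even peaks in 7 of the 10 genes, 5 odd peaks in 3 genes and 6 LacZ peaks in 4 genes. Over all 20056 protein-coding genes, 1.54% had an even peak, 1.64% an odd peak and 2.22% a LacZ peak, and nothing is read from the members' share because it chose them. The 17 even peaks were 3.39% (exact 95% interval 1.98 to 5.37) of the 502 peaks in that list. The 5 odd peaks were 0.923% (0.300 to 2.14) of 542, and the 6 LacZ peaks were 0.831% (0.306 to 1.80) of 722. These intervals, Clopper-Pearson as elsewhere in the text, cover counting error alone, and peaks of 1 gene are not independent of each other.

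In reads, the helicase peaks held 22801 of the 482418 reads in even peaks (4.73%, 4.67 to 4.79). They held 2370 of 279415 reads in odd peaks (0.848%, 0.815 to 0.883) and 932 of 219401 reads in LacZ peaks (0.425%, 0.398 to 0.453). DDX27 and DDX23 carried 77.4% of the even helicase reads, in 10 of the 17 peaks. Without these 2 genes the even share was 1.07%, the odd share 0.417% and the LacZ share 0.267%. Most of the even helicase reads thus came from 2 genes. The depth of the libraries outside peaks is unknown.

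**Figure D1:**
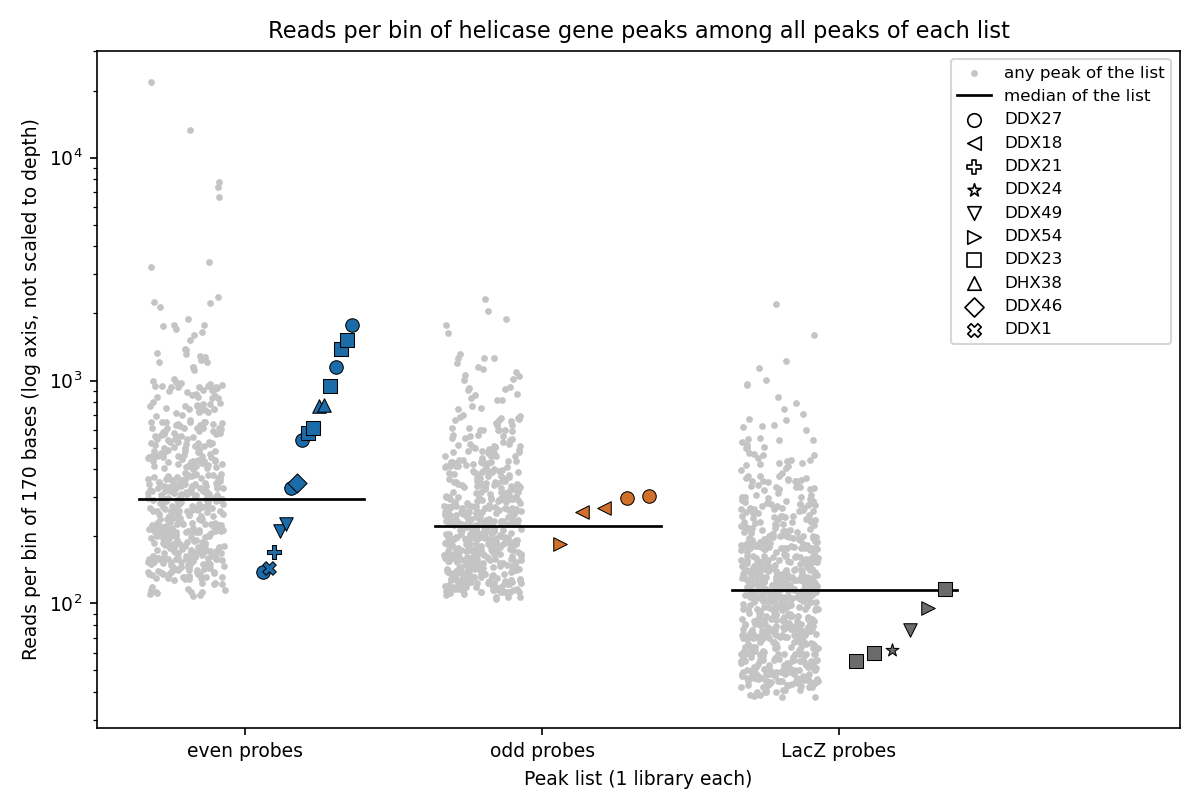
Reads per bin of 170 bases (log axis, not scaled to depth) for each peak of the even, odd and LacZ lists (grey points), with the list median as a line and the helicase peaks as coloured symbols, 1 library per list. Of the helicase peaks, 12 of 17 even and 4 of 5 odd peaks lay above their list's median, and 1 of 6 LacZ peaks did, a DDX23 peak at 116 against a median of 115.

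Against its own list, the median helicase peak was high among even peaks and low among LacZ peaks. It had 581 reads per bin with even probes, where the median of all peaks was 293. The values were 268.5 against 221.5 with odd probes and 69.0 against 115 with LacZ probes. By p-value, the median helicase peak was at rank 109 of 502, 158 of 542 and 446 of 722. Without DDX23 and DDX27, the median of the other 7 even peaks was 227.7 reads per bin, below the list's median.

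Among the helicases of ribosome assembly, DDX27 was the most heavily captured. Its protein works on the large ribosomal subunit with the PES1 complex. The gene (gene ID 55661) spans chromosome 20, 49219416 to 49244073, and had 5 even, 2 odd and 0 LacZ peaks. From the gene start onward, the even peaks had 139, 542, 1779, 1145 and 330 reads per bin. The strongest of these by reads covered chr20:49222821-49223500, 3405 bases into the gene, with a p-value of 8.10e-09 and rank 10 of 502. The peak at chr20:49224861-49225030 had fewer reads but the smaller p-value, 2.47e-12, at rank 3. The lists carry an unnamed score for each bin, in whole steps, and this bin was at 3 steps against a mean of 13.8 in the stronger peak. What the score measures is not known here, and if the caller used it as a covariate, p-values and their ranks depend on it.

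The odd peaks of DDX27 lay inside the even pattern. At chr20:49221461-49221630 the odd list had 298 reads per bin (p-value 0.00123, rank 158 of 542), within an even peak of 542. At chr20:49222821-49223330 it had 302.7 reads per bin (p-value 0.000741, rank 123), within the even peak of 1779. Both odd peaks thus overlapped even peaks, and both overlaps took in the whole odd peak. Overlapping even and odd peaks without any LacZ peak were found in 0.145% of protein-coding genes, and DDX27 was the 1 helicase among them.

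The even probes gave 3 DDX27 peaks with no odd counterpart. The number of reads a bin needed differed between lists and rose with the score. Within 5 steps of the score of the 1145-read bin, the odd list held 132 single-bin peaks, of which the lowest had 105 reads. The LacZ list held 111 there, of which the lowest had 38 reads. A bin without a peak can hold reads below such limits, so no peak is not the same as no RNA.

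DDX27 held 10474 reads of the even list (2.17%), at rank 3 of 338 genes, and 1206 reads of the odd list (0.432%, 0.408 to 0.457), at rank 66 of 359 genes. Its pattern was compared with that of the other 31 genes that shared an even and odd region and had no LacZ peak, 32 in all, by the summed difference in best even and best odd rank. The nearest was ANP32B, at even rank 1 and odd rank 207, against ranks 3 and 123 for DDX27. The even rank of 3 belongs to a DDX27 peak that no odd peak overlapped, and its best even peak in a shared region was at rank 10. After ANP32B came CKAP5 (ranks 85 and 129) and RDX (58 and 65). The summed differences were 86, 88 and 113 ranks.

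The other ribosome assembly helicases had weaker peaks, each in 1 or 2 lists. DDX18, which acts on the large subunit, had odd peaks only, at chr2:117817481-117817820 with 268.5 reads per bin (p-value 0.00113) and at chr2:117819521-117819690 with 257 (p-value 0.00138). They ranked 151 and 167 of 542 and lay 1700 bases apart. The gene (gene ID 8886) spans chromosome 2, 117814691 to 117832377. Annotation names 6 pseudogenes after DDX18, so its reads are uncertain where alignment could divide them among copies.

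DDX21, a nucleolar helicase of ribosomal RNA synthesis and processing, had 1 even peak. It lay at chr10:68960161-68960330, 3991 bases into the gene (gene ID 9188), with 170 reads per bin, a p-value of 0.00401 and rank 331 of 502. DDX24, a helicase needed for the large subunit, was the 1 member with LacZ peaks alone. Its peak lay at chr14:94060151-94060660, 20542 bases into the gene (gene ID 57062), with 61.7 reads per bin, a p-value of 0.00258 and rank 399 of 722. At like scores the lowest single-bin even peak had 108 reads and the lowest odd peak 105, above the LacZ value of DDX24, so a like number of reads in those libraries would not have been listed.

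DDX49, which takes part in pre-ribosomal RNA processing, had even peaks that met a LacZ peak. The even peaks lay at chr19:18926271-18926440 with 211 reads per bin (p-value 0.00740, rank 445 of 502) and at chr19:18927631-18928140 with 227.7 (p-value 0.00313, rank 293). The LacZ peak at chr19:18927631-18928310 had 76.2 reads per bin (p-value 0.00370, rank 459 of 722) and covered the whole second even peak. It ended 320 bases before the high-coordinate end of the gene (gene ID 54555), at 18928630.

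DDX54 is a nucleolar helicase that has also been studied as a partner of nuclear receptors. It had an odd peak at chr12:113157441-113157780, 268 bases before the end of the gene (gene ID 79039), with 185 reads per bin, a p-value of 0.00222 and rank 217 of 542. Its LacZ peak lay elsewhere, at chr12:113161351-113161520, with 95 reads per bin, a p-value of 0.00334 and rank 439 of 722. The odd peak also lies in the span of CFAP73, and the reads were not assigned to a strand that would separate the pair. All 340 bases of the peak lie in both spans, so it is counted for DDX54 here and could equally be CFAP73 RNA.

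**Figure D2:**
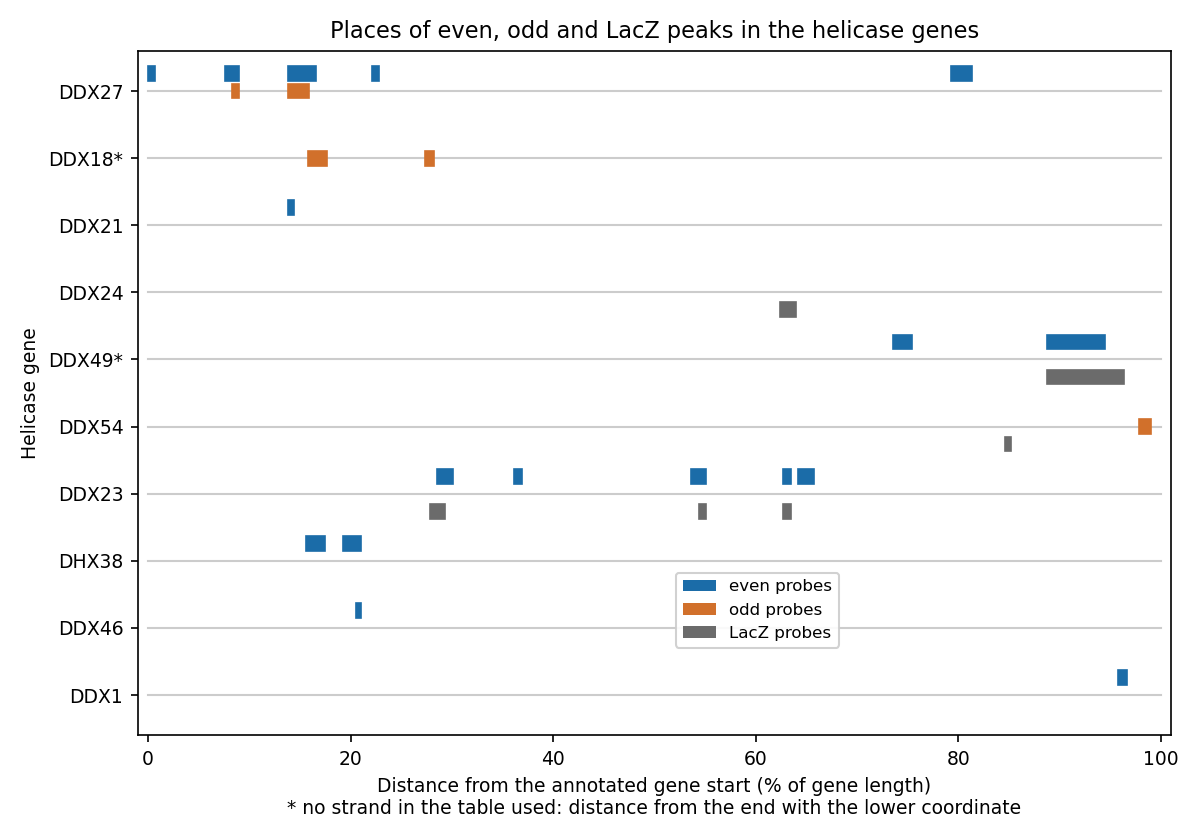
Places of the peaks along each helicase gene, in percent of gene length from the annotated start (for DDX18 and DDX49, from the end with the lower coordinate), with even peaks above, odd peaks on and LacZ peaks below each line. The odd peaks of DDX27 sit under even peaks, the 3 LacZ peaks of DDX23 sit under even peaks, and the odd and LacZ peaks of DDX54 lie apart.

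Among the splicing helicases, DDX23 was captured most, and with the control probes as well. Its protein is a component of the U5 particle and helps to exchange U1 for U6 at the 5′ splice site. DDX23 (gene ID 9416) is transcribed from the minus strand of chromosome 12, between 48829756 and 48852163. In the direction of transcription, its 5 even peaks had 613, 1516, 949.5, 1382 and 581 reads per bin, all above the list's median of 293. Their ranks by p-value were 109, 24, 21, 4 and 80 of 502. The smallest p-value, 5.98e-11, was at chr12:48837941-48838110, which had 1382 reads per bin.

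DDX23 had 0 odd peaks and 3 LacZ peaks, and all 3 LacZ peaks overlapped even peaks. In the direction of transcription they had 116, 55 and 60 reads per bin, with p-values of 0.00134, 0.00361 and 0.00643 and ranks 301, 453 and 592 of 722. The LacZ peak of 60 reads occupied the same bin as the even peak of 1382, and both carried a score of 15 steps. The peak of 116 reads, at chr12:48845591-48845930, was shifted by 1 bin from the even peak of 613. DDX23 thus had regions in the control list as well, 1 with reads per bin just above that list's median of 115 and 2 below it.

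The ratio of unscaled reads between overlapping peaks can be set beside the same ratio in all overlapping peaks of the same lists, which carries the depth of both libraries. Over 74 overlapping even and LacZ pairs the median ratio was 2.87, from 0.550 to 34.4. For DDX23 it was 23.0, 17.3 and 5.28, at ranks 3, 4 and 17 of 74. The ratio for DDX49 was 2.99, at rank 36, close to the median. Over 94 even and odd pairs the median was 1.31, and DDX27 had 5.88 and 1.82, at ranks 3 and 33. The ratios describe these libraries, and pairs enter only where both lists have a peak. Reads per bin are averaged over each whole peak. Among the helicase pairs, only the DDX23 pair at 23.0 covered the same bins in both lists.

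**Figure D3:**
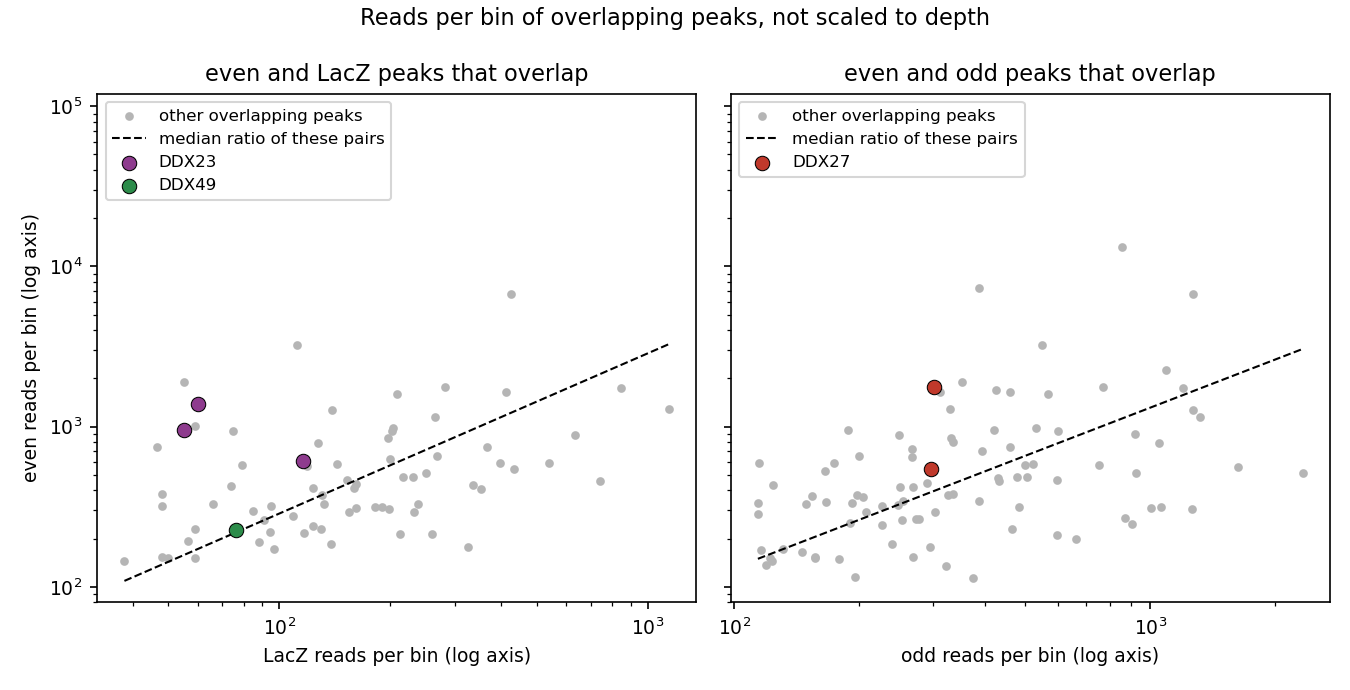
Reads per bin of peaks that overlap between the even and LacZ lists (left) and between the even and odd lists (right), both axes logarithmic and not scaled to depth, with the median ratio of each panel's pairs as a dashed line. The 3 DDX23 pairs lie above the line, at 5.28 to 23.0 against a median of 2.87. DDX49 lies on the line and 1 DDX27 pair lies well above it.

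At the DDX23 even peak with the most reads per bin, 1516 at chr12:48843891-48844060, neither other list had a peak. This bin had a score of 38 steps, and within 5 steps of it the lowest single-bin odd peak had 268 reads and the lowest LacZ peak 85. The bin could thus hold more unlisted LacZ reads than the 55 and 60 that were listed elsewhere in the gene. DDX23 held 7185 reads of the even list (1.49%, 1.46 to 1.52), at rank 9 of 338 genes, and 347 reads of the LacZ list (0.158%, 0.142 to 0.176), at rank 161 of 511.

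DHX38, a DEAH box helicase of the second step of splicing, had a pair of even peaks and no other. They lay 340 bases apart at chr16:72096831-72097170 and chr16:72097511-72097850, with 778.5 and 770.5 reads per bin. Their p-values were 4.41e-07 and 2.72e-07, at ranks 27 and 22 of 502. The first began 2984 bases into the gene (gene ID 9785), which spans chromosome 16, 72093847 to 72112912. With 3098 reads (0.642% of the even list), DHX38 was at rank 30 of 338 genes. At like scores, the lowest single-bin LacZ peaks had 48 and 46 reads, and the lowest odd peaks 135 and 131.

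DDX46, which helps the U2 particle to bind the branch site, had 1 even peak. It lay at chr5:134773621-134773960, 14842 bases into the gene (gene ID 9879), with 346 reads per bin, a p-value of 0.00169 and rank 222 of 502. All 3 splicing helicases with a peak were thus in the even list, DDX23 in the LacZ list too, and 0 in the odd list.

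DDX1 stands outside both groups, as a subunit of the tRNA ligase complex that also acts in other RNA pathways. Its even peak, at chr2:15629461-15629800, had 144 reads per bin, a p-value of 0.00531 and rank 384 of 502. It lay 1301 bases before the end of the gene (gene ID 1653), in a bin pair with a score of 1 step.

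Counted as regions, in which overlapping peaks are joined, the helicase peaks formed 11 regions of the even list alone, 3 of the odd list alone and 2 of the LacZ list alone. A further 2 regions were shared by even and odd, both in DDX27, and 4 by even and LacZ, 3 in DDX23 and 1 in DDX49. Overlapping even and LacZ peaks with no odd peak were found in 0.115% of protein-coding genes, DDX23 and DDX49 among them. No region was shared by odd and LacZ. Of the 17 even peaks, an odd peak was met by 2 (11.8%, 1.46 to 36.4), against 18.5% of all even peaks. A LacZ peak was met by 4 (23.5%, 6.81 to 49.9), against 14.7%. Among the odd peaks an even peak was met by 2 of 5 (40%, 5.27 to 85.3), against 17.3% of all odd peaks. None of the 5 odd peaks overlapped a LacZ peak (upper limit 52.2%), against 16.2%. The 2 odd peaks that met an even peak are both in DDX27, and peaks of 1 gene are not independent, so nothing is read from these shares.

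Of the 6 LacZ peaks, 4 overlapped an even peak (66.7%, 22.3 to 95.7), against 10.2% of all LacZ peaks. An odd peak was overlapped by 0 (upper limit 45.9%), against 12%. These 4 come from DDX23 and DDX49 alone, peaks of 1 gene are not independent, and the genes were chosen with these peaks known, so nothing is read from the shares. By gene, DDX1, DDX21, DDX46 and DHX38 had even peaks alone, DDX18 odd peaks alone and DDX24 a LacZ peak alone. DDX27 had even and odd peaks, DDX23 and DDX49 even and LacZ peaks, and DDX54 odd and LacZ peaks. None of the 10 had peaks in all 3 lists. Of the 847 protein-coding genes with a peak, 21% had even peaks alone, 21.5% odd peaks alone and 35.1% LacZ peaks alone. Even and odd peaks were held by 4.96%, even and LacZ peaks by 5.19%, odd and LacZ peaks by 6.97% and peaks of each kind by 5.31%.

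Many even helicase peaks lay early in their genes, chiefly those of DDX27 and DHX38. Of the 15 even peaks in genes with a strand in the table used, 10 had their centre in the first 50% of the gene, and the median place was 22.4% of gene length. Over 343 even peaks that lie in 1 protein-coding gene the median was 60.6%, and 39.9% lay in the first 50%. The peaks of DDX27, DDX23, DHX38, DDX21 and DDX46 gave these 10, although 3 of the 5 DDX23 peaks lay past 50%. Most of the 10 came from DDX27, DDX23 and DHX38, and peaks of 1 gene are not independent, so nothing is read from the share. The 2 even peaks of DDX49 had no strand in that table and are not in these counts. Of the 5 LacZ helicase peaks with a strand, 1 lay in the first 50%, with a median place of 63.1% against 67.2% over all LacZ peaks. Of the 3 odd ones, 2 did, both in DDX27. DDX1 lay at 96.2% of its length, and the odd peak of DDX54 at 98.5%. Gene spans include introns, and exon positions were not used here, so these places are not places in the mature RNA.

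The scores of the helicase peaks lay between 1 and 38 steps. The median even helicase peak was at 13 steps, against 12.5 over all even peaks. The medians were 16 against 10.6 for odd and 13.6 against 18 for LacZ. Where peaks of different lists covered exactly the same bins, they carried the same score, so these medians describe which bins were listed. No helicase peak contained a bin with the fixed score of 0.01, which is not a whole step, whereas 57 even, 22 odd and 169 LacZ peaks did.

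The whole family was then counted by name, from a list of 59 DEAD and DEAH box genes that left out the Y-linked member. The 10 genes above were all those with a peak (16.9%, 8.44 to 29.0), and the other 49 had none. Over all protein-coding genes 4.22% had a peak in any list. The levels of these RNAs in the lysate were not used here, and the family was picked with these peaks known, so the counts are a description.

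By role, 6 of 17 ribosome assembly helicases had a peak, with 3 genes in each of the 3 lists (17.6%, 3.80 to 43.4). Of 12 splicing helicases, 3 had an even peak (25.0%, 5.49 to 57.2), 0 an odd peak and 1 a LacZ peak. The 12 helicases of translation, export and mRNA turnover, among them EIF4A1, DDX3X, DDX6 and DHX36, had 0 peaks in each list (upper limit 26.5%). DDX1 was the 1 gene with a peak among the remaining 18. Over all protein-coding genes the shares were 1.54% even, 1.64% odd and 2.22% LacZ. The family was picked with these peaks known, so nothing is read from the difference. The ribosome assembly group was thus present in the control list to the same number of genes as in either ZNF609 list.

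**Figure D4:**
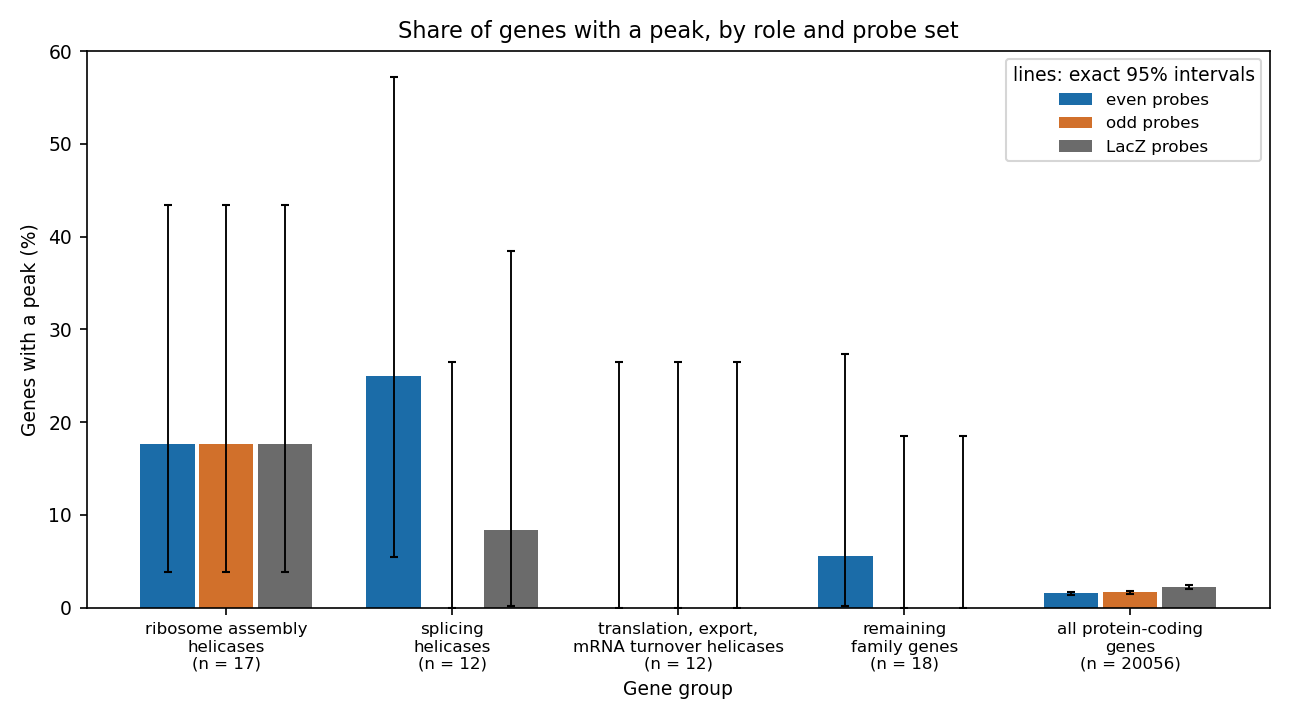
Share of genes with a peak (percent) in the even, odd and LacZ lists for helicases grouped by role and for all protein-coding genes, with exact 95% intervals as lines. The ribosome assembly helicases stand at 17.6% in each list, and the splicing helicases at 25.0%, 0 and 8.33%. All protein-coding genes stand at 1.54%, 1.64% and 2.22%. The intervals of the helicase groups overlap one another.

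Partners of these helicases were counted in the same way. Of 14 genes of the PES1 complex and other ribosome assembly factors, 6 had a peak (42.9%, 17.7 to 71.1), against 4.22% of all protein-coding genes. By list, 3 of them had even, 5 odd and 3 LacZ peaks, where 1.54%, 1.64% and 2.22% of all protein-coding genes did. The partner lists were chosen with earlier results of these data known, so these counts are a description. PES1, a partner of DDX27, had even peaks of 480.5 and 260.5 reads per bin and odd peaks of 430 and 253 in 2 shared regions, and no LacZ peak. MDN1, an ATPase that strips factors from the large subunit, had 2 shared regions as well, with 363 and 151 even and 204 and 156 odd reads per bin, both also in the span of MDN1-AS1. NCL, which encodes the nucleolar protein nucleolin, had 6 even, 1 odd and 1 LacZ peak, and its strongest even peak, at 3235.5 reads per bin, was in a region found in all 3 lists that also lies in SNORD82, a small nucleolar RNA gene. NOP14, a small-subunit factor, had 5 odd peaks of 144 to 258 reads per bin and no other, of which 2 also lie in NOP14-AS1. NOP2 had odd and LacZ peaks and NOP56 a LacZ peak.

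Of 24 partner genes of the U2 particle and the tri-snRNP, 6 had a peak (25.0%, 9.77 to 46.7), against 4.22% of all protein-coding genes. By list, 4 of them had even, 1 odd and 4 LacZ peaks, where 1.54%, 1.64% and 2.22% of all protein-coding genes did. PRPF8 and SART1, whose proteins sit in the tri-snRNP with DDX23, had even and LacZ peaks at different places. The PRPF8 peaks had 305 even and 67 LacZ reads per bin. SF3A1, a subunit of the U2 particle, shared an even and LacZ region, with 214.5 and 259.5 reads per bin. This region was at rank 213 of 502 even peaks and 26 of 722 LacZ peaks. Its even to LacZ ratio was 0.827, at rank 72 of 74. A second SF3A1 peak, in the LacZ list alone, had 239 reads per bin at rank 22. SF3A2 had a LacZ peak, HTATSF1 an even peak and SF3B4 an odd peak. Among 12 second-step factors, 2 had a peak (16.7%, 2.09 to 48.4), an interval that holds the 4.22% of all protein-coding genes. SYF2 had 2 even peaks and XAB2 2 LacZ peaks, at ranks 8 and 36 of 722.

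Of 16 RNA helicases outside the family, 2 had a peak (12.5%, 1.55 to 38.3), an interval that holds both the 4.22% of all protein-coding genes and the 16.9% of the family. MOV10 had an even peak of 158 reads per bin and ZNFX1 an odd peak of 184. The 6 listed genes of the tRNA ligase complex other than DDX1 had 0 peaks (upper limit 45.9%). Of 11 markers of the skeletal muscle lineage, DES, TNNT1, TNNT2 and ACTC1 (whose peak also lies in GJD2-DT) had a peak and 7 did not, MYOD1 and MYOG among them. Of 10 markers of blood, epithelium, endothelium and liver, 0 had a peak (upper limit 30.8%). Peaks report captured RNA and not expression, so the label of the cells was checked by these counts only.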

How the data were processed

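Peak lists of 3 pull-downs from RD cells, with 1 library each, were analysed. The build was GRCh38 and the tools were STAR 2.5.2b, Trimmomatic, Picard, SAMtools, bedtools and bcl2fastq 2.0.2, per the submitters' processing notes. Piranha is named in the titles of the lists. The role and settings of each tool, and how duplicate reads were treated, are not stated in the labels. The library kits were Ovation Ultralow v2 after Ovation RNA v2, per the labels' protocols.

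The lists have no header, so columns were read from their values. In column 5 the authors deposited a signal, the reads per bin of 170 bases, averaged over joined bins, since 100% of peaks gave whole reads (tolerance 0.02) on a grid of 170 bases. In column 7 the authors deposited a p-value, and no label says if it was corrected. The deposited score of column 8 was a whole multiple of 1/4434, or a fixed 0.01, within 0.005 steps in 100% of peaks. No label gives its meaning, and it may be a covariate of the peak caller, on which p-values and ranks would then depend.

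Peaks were assigned to every RefSeq gene span (GRCh38.p14) that they overlapped by at least 1 base, with strand ignored, and all 10 symbols and 59 family symbols matched. Peaks of different lists were joined into regions when they shared 1 base. Within a list, rank 1 is the smallest p-value. Gene orientation came from the RefSeq promoter table, which held 8 of the 10 genes. Shares have Clopper-Pearson 95% intervals, and no p-value between lists was computed. The assignment was tested on simulated data, with 200 of 200 planted genes found. Python 3.11.15, pandas 2.3.3, scipy 1.17.1 and matplotlib 3.10.9 were used.

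The members, lists and rules were chosen with earlier results of these data known. All members were named, other listed genes only where they had a peak, and the 3 genes nearest to DDX27 by rank. Alternatives were a p-value limit of 0.001, no peaks with the fixed 0.01, lists of equal length, other overlap and assignment rules, and ranks by reads. Protein and exon features were not used here.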

Additional observations from a re-analysis of the deposited data

How the results depend on the processing

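The limit of 0.001 on the p-value changed most counts, because it keeps the strongest peaks of each list. It left 10 even peaks in 3 genes (DDX23, DDX27 and DHX38), 1 odd peak in 1 gene (DDX27) and 0 LacZ peaks in 0 genes, so 3 family genes in all. Over all genes, at least 174 of 502 even, 123 of 542 odd and 251 of 722 LacZ peaks met this limit. Few odd and LacZ helicase peaks entered, and peaks of 1 gene are not independent, so nothing is read from the difference between lists. Of the regions, 1 was then shared by even and odd, 0 by even and LacZ, 0 were of the odd list alone and 0 of the LacZ list alone. Of the genes, 2 had even peaks alone, and 0 had odd peaks alone, LacZ peaks alone, even and LacZ peaks or odd and LacZ peaks. The helicase share of reads became 7.57% of even, 0.745% of odd and 0% of LacZ reads. With each peak given to 1 gene, the odd peak of DDX54, which lies wholly in CFAP73 too, went to CFAP73 because ties go to the shorter gene, so 2 genes had LacZ peaks alone and 0 had odd and LacZ peaks. With spans widened by 1000 bases, DDX42 joined the LacZ list through a peak past its end, at rank 701 of 722, and no other count of peaks or genes moved by over 1.5 times. Leaving out peaks with the fixed score of 0.01, trimming lists to 502 peaks, a reciprocal overlap of 50% and a distance of 200 bases moved no count by over 1.5 times. Ranked by reads per bin, the best even rank became 13 for DDX27, 19 for DDX23 and 63 for DHX38, and the best odd rank of DDX54 became 338. Depth outside peaks is unknown, so weak capture below a list's limit was not detectable. No paired analysis was possible because each probe set had 1 library.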
